A study of Mus musculus with 6 samples.

Results

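The genes described here are 54 genes of late G2 phase and mitosis, chosen by name: the mitotic kinases, the mitotic cyclins and their regulators, the spindle checkpoint, the kinetochore, the mitotic kinesins, the cytokinesis machinery and the condensins. All 54 were found by symbol among the 40808 Entrez gene identifiers of the deposited count table. RNA came from spleens of mice that had received a bone marrow transplant, and the labels call the cells taken from them leukemia cells. The 2 groups were 3 libraries labelled as without Dox (replicates 4, 5 and 6) and 3 labelled as on Dox (replicates 10, 11 and 12). Beyond tissue and Dox status, the labels carry no strain, age, sex, donor, dose or duration, and do not say which gene Dox was meant to control. They do not say that the libraries of a group came from separate mice, so p-values measure the spread between these libraries, which may be technical.

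In the cell cycle, cyclin A and cyclin B switch on the kinase CDK1, which drives cells from G2 into mitosis. Polo-like and Aurora kinases then build the spindle, kinetochores join chromosomes to it, and a checkpoint holds back the anaphase-promoting complex until every chromosome is attached. In spleen, transcripts of these genes mark dividing cells of any lineage, among them leukaemia cells, activated lymphocytes, erythroblasts and myeloid progenitors.

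The libraries held 5541486 to 8725767 counts, and the members together held 8803 to 11047 of every 1000000 counts (CPM). Values of single genes below are CPM after TMM scaling, which corrects for library composition. They come from the 3′ ends of mRNAs and are not scaled by transcript length, so they are read within a gene and not between genes. The spread between libraries was wider on Dox: the SD of a member was a median 22.4% of its mean on Dox and 11% without Dox, against 33.2% and 18.8% for all genes tested. Counts of Xist, which coats the silenced X chromosome, ran from 193 to 324 without Dox and from 3347 to 5669 on Dox, so Dox cannot be told apart from a difference in sex-linked expression.

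Nearly as many mitotic genes were lower on Dox as did not pass the test, and hardly any was higher. Of 53 members tested, 24 were lower on Dox, 2 were higher and 27 did not pass the threshold (edgeR quasi-likelihood test, Benjamini-Hochberg adjusted p under 0.05 over all genes). Among all 14110 genes tested, 22.1% were lower and 23.6% higher, against 45.3% and 3.77% of the members. The median log2 fold change of the members was -0.64, a 1.55-fold lower level, beside 0.07 for all genes tested. It ranged from -3.16 for Stmn1 to 1.22 for Incenp. The groups did not overlap, lower on Dox, in 30 members (29.6% of all genes tested) and, higher on Dox, in 4 members (30.0% of all genes tested). Scaling by library size alone raised the median of all genes by 0.31 on the log2 scale. It left 13 members lower and 6 higher, with a member median of -0.33.

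**Figure D1:**
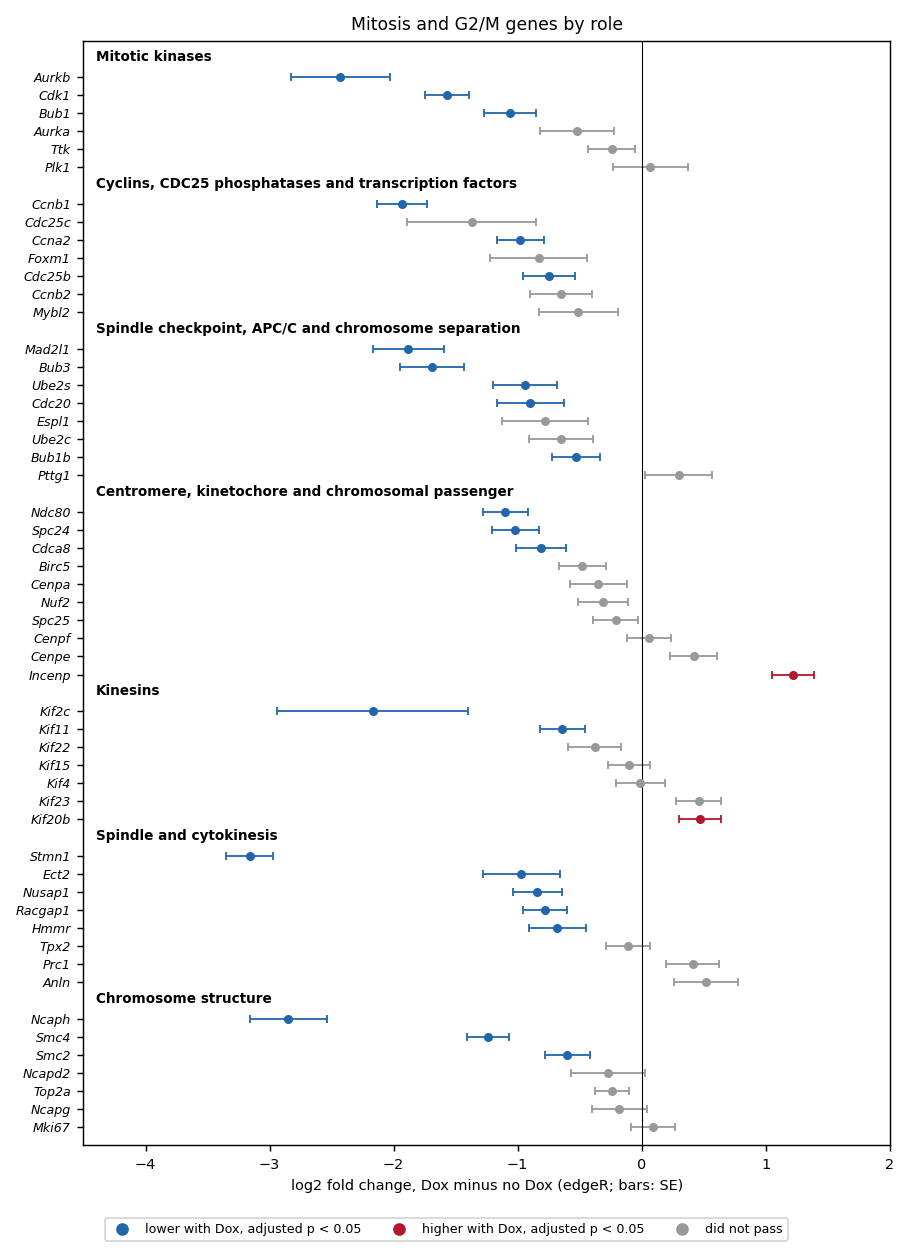
Log2 fold change (Dox minus no Dox, x axis) of the 53 members tested, grouped by role, with points for the edgeR estimate and bars for its SE. The 24 members lower on Dox reach from Bub1b at -0.53 to Stmn1 at -3.16, and Incenp at 1.22 and Kif20b at 0.47 are the 2 that were higher.

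The call held in each of the 18 alternative analyses for 12 of the lower members (Stmn1, Ncaph, Aurkb, Ccnb1, Mad2l1, Bub3, Cdk1, Smc4, Ndc80, Bub1, Ccna2 and Nusap1) and for 1 of the higher members, Incenp. No called member changed sign in any of them. Of the other called members, Kif20b lost its call in 11 alternatives, Bub1b in 9, Hmmr and Smc2 in 6, Kif2c in 5, Cdc20 and Ect2 in 4, and the remaining 6 in 2 or 3. Of the 27 members that did not pass, 18 passed in at least 1 alternative. Of these, 14 did so with the sign they had, in 6 alternatives each for Ccnb2, Ube2c and Kif23, 5 for Cdc25c and Birc5, 4 for Foxm1 and Cenpe, and 1 to 3 for the rest. The other 4, Cenpa, Cenpf, Kif15 and Mki67, passed only with the sign turned. The last member, Kif20a, a kinesin of the central spindle, had 3 counts in replicate 5 without Dox and 0 in the other libraries, and was not tested. Antisense genes lie over the last exons of Kif20a (Cdc23) and Ccna2 (Exosc9), so the counts of both are uncertain.

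Markers of T cells fell, and those of B cells and neutrophils rose, with Dox. Of 14 T cell markers, 12 were lower on Dox and the median of all 14 was -3.10 on the log2 scale. Their summed level was 2500 to 2636 CPM of the library total without Dox and 312 to 434 on Dox. All 12 B cell markers were higher on Dox, with summed levels of 42.0 to 46.2 and 2386 to 2721 CPM. All 7 markers of neutrophil progenitors, which divide, were also higher, with 1.26 to 1.68 CPM without Dox and 183 to 197 on Dox, and Fcnb and Cebpe were at 0 in every library without Dox. Markers of erythroblasts, another dividing cell of the mouse spleen, summed to 11961 to 13523 CPM and 10343 to 17260 CPM in overlapping groups, with 6 of 14 tested higher and 3 lower. Germinal centre B cell markers summed to 19.7 to 34.6 and 41.3 to 80.5 CPM. Of 5 tested, 1 was higher and 4 did not pass, and Mef2b was at 0 in every library. Haematopoietic progenitor markers summed to 6.86 to 8.17 and 76.7 to 104 CPM, with 4 of 5 tested higher. Mature neutrophil markers, of cells that no longer divide, summed to 43.8 to 56.8 and 1773 to 1926 CPM, with all 7 higher. NK and cytotoxic markers summed to 311 to 369 and 26.6 to 36.8 CPM, but of 6 tested 1, Gzma, was lower (at 0 in every Dox library) and 3 were higher, with a median of 2.53 on the log2 scale. Plasma cell markers (260 to 269 and 269 to 294 CPM), macrophage and monocyte markers (623 to 796 and 812 to 1122 CPM) and markers of stroma and endothelium (173 to 190 and 279 to 376 CPM) stood closer together, and these lists held both lower and higher genes. In bulk RNA, fewer cells of a type and less RNA per cell cannot be told apart, and the part of cell composition in the mitotic differences was not tested.

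Summed over all 54 members, the libraries without Dox held 10660, 10652 and 11047 CPM and those on Dox 8852, 8803 and 10219. These sums are shares of the library total without TMM scaling, unlike the values of single genes. The groups did not overlap, and the mean was 1.16-fold lower on Dox. On the log2 scale this was -0.22, and it was -0.11 with globins, antigen receptors and the mitochondrial genome left out of the total. By library size alone, also without TMM scaling, the member median was -0.33, against -0.64 with it. Smc4, Top2a and Mki67 supplied 37.6% to 42.8% of the summed counts, and without them the mean was 1.12-fold lower. Relative to the T cell markers, member counts stood at ratios of 4.05, 4.26 and 4.19 without Dox and 20.4, 21.3 and 32.8 on Dox. The mean ratio was 5.95-fold higher on Dox, and the groups lay far apart. The member total changed far less than the T cell markers, so this ratio mainly restates the fall of those markers.

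**Figure D2:**
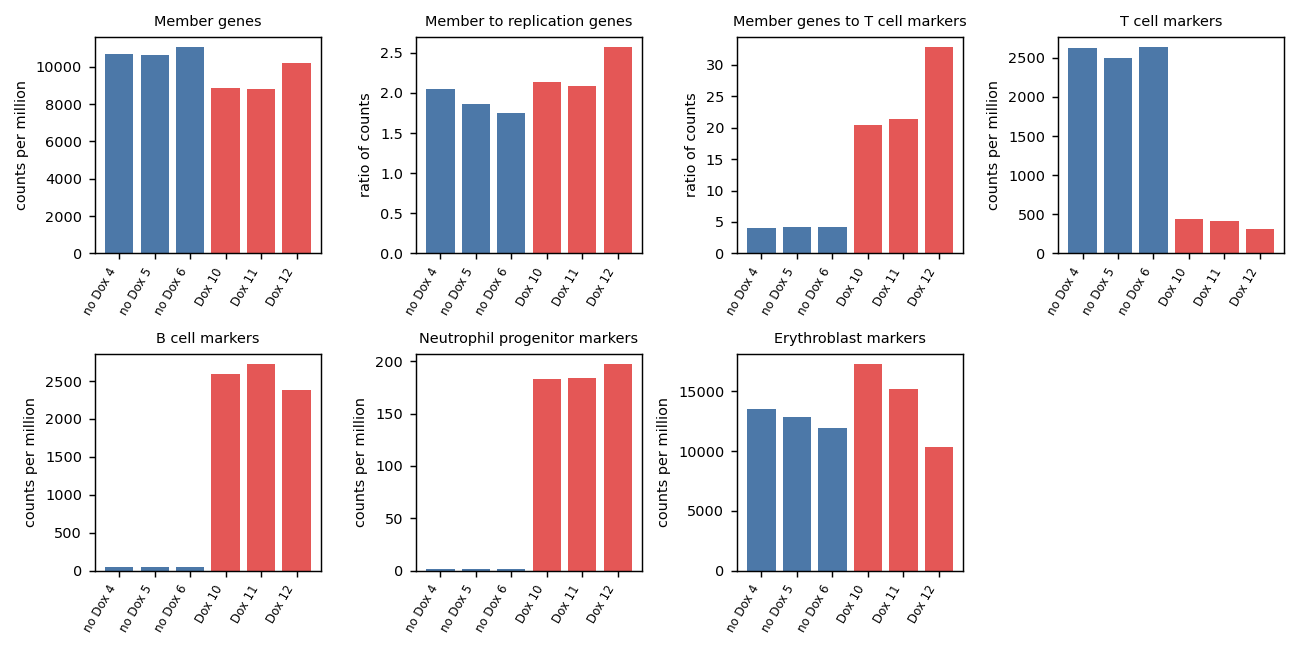
Summed CPM of the members and of 4 marker lists, and ratios of member counts to replication gene counts and to T cell marker counts, in each library (bars start at 0; blue without Dox, red on Dox). Sums are shares of the library total without TMM scaling. The member total differed by 1.16-fold between group means. T cell markers fell from at least 2500 to at most 434 CPM, and B cell markers rose from at most 46.2 to at least 2386 CPM.

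DNA replication precedes mitosis in the same cycle. Of 43 replication genes, 27 were lower on Dox (62.8%, against 22.1% of all genes tested), 1, Chaf1a, was higher (2.33%, against 23.6%) and 15 did not pass, with a median of -1.19. The ratio of member counts to replication gene counts was 2.05, 1.86 and 1.75 without Dox and 2.13, 2.09 and 2.57 on Dox. These ratios did not overlap between the groups, though replicate 4 without Dox lay close to replicate 11 on Dox. The difference between the lists was not tested.

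Among the mitotic kinases, 3 of 6 were lower on Dox, where 22.1% of all genes tested were, and 6 genes are too few to set against that share. Cdk1, the kinase that starts mitosis, stood at 203, 159 and 204 CPM without Dox and 69.8, 58.6 and 62.1 CPM on Dox, a 2.97-fold fall (log2 fold change -1.57 ± 0.18 (SE), adjusted p = 7.8e-05). Aurkb, the kinase of the chromosomal passenger complex, went from 52.2, 46.8 and 46.8 CPM to 10.8, 12.6 and 3.56 CPM (log2 fold change -2.43 ± 0.40, adjusted p = 0.000869). Every Dox library was far below every library without Dox for these kinases, and replicate 12 was the lowest for Aurkb. Bub1, a checkpoint kinase at the kinetochore, fell from 47.5, 59.2 and 54.1 CPM to 22.6, 25.8 and 28.5 CPM (-1.06 ± 0.21, adjusted p = 0.00254).

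The other kinases did not pass. Plk1, which acts from centrosome maturation to cytokinesis, was at 108, 132 and 179 CPM without Dox and 182, 176 and 81.7 CPM on Dox. Its groups overlapped, with 2 Dox libraries near the top of the range and replicate 12 at the bottom (0.07 ± 0.30, adjusted p = 0.872). Ttk, the checkpoint kinase MPS1, had 53.4, 66.7 and 68.5 CPM and 51.6, 57.9 and 49.7 CPM (adjusted p = 0.323). Aurka, the centrosomal Aurora kinase, had 44.8, 40.1 and 39.8 CPM without Dox and 28.0, 18.2 and 41.1 CPM on Dox, so that replicate 12 alone reached the level without Dox. Left out, that library moved Aurka to -0.87 (adjusted p = 0.0159), against -0.52 ± 0.30 and 0.182 with it. Without replicate 11 on Dox, Aurka was at -0.29 (adjusted p = 0.365). Removing the trend of fold changes with transcript length also made its fall smaller, to -0.34 with lengths taken over all GENCODE transcript models. It was -0.21 with lengths from the GENCODE basic set, which leaves out partial models and was taken up after the first result had been seen.

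Of the cyclins, Ccnb1 and Ccna2 fell and Ccnb2 did not pass. Cyclin B1 transcripts (Ccnb1) stood at 110, 97.7 and 143 CPM without Dox and 30.2, 30.5 and 31.1 CPM on Dox. The Dox libraries were nearly identical, 3.82-fold below the others (-1.93 ± 0.20, adjusted p = 4.93e-05). A pseudogene, Ccnb1-ps, had 81 counts at most and was also lower (-1.70, adjusted p = 0.0176), and reads shared between the copies could not be separated here. Cyclin A2 transcripts (Ccna2) went from 135, 110 and 129 CPM to 52.1, 73.0 and 65.4 CPM (-0.98 ± 0.19, adjusted p = 0.00218). Cyclin B2 transcripts (Ccnb2) ran from 154, 131 and 158 CPM to 59.5, 100 and 124 CPM, without overlap but with wide spread on Dox (-0.65 ± 0.25, adjusted p = 0.0593). Without replicate 12 on Dox its adjusted p was 0.00723, while with the length trend removed it was at -0.28 over all models (adjusted p = 0.385) and -0.11 over the basic set (adjusted p = 0.748). Within a library, the count ratio of Ccnb2 to Ccnb1, which no scaling alters, was 1.40, 1.34 and 1.10 without Dox and 1.97, 3.28 and 3.98 on Dox.

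CDC25 phosphatases remove the inhibitory phosphates from CDK1. Cdc25b fell from 71.6, 81.7 and 95.3 CPM to 60.6, 43.7 and 43.1 CPM (-0.75 ± 0.21, adjusted p = 0.0149), a call lost without replicate 6 of the group without Dox (adjusted p = 0.0557) and by library size alone (adjusted p = 0.129). Cdc25c was scarce, at 9.25, 8.51 and 6.61 CPM and 3.27, 2.57 and 3.56 CPM (-1.37 ± 0.52, adjusted p = 0.0523). Its groups did not overlap, and without replicate 12 on Dox the adjusted p was 0.0451.

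Neither transcription factor of the late cell cycle passed. Foxm1, which activates G2/M genes, was at 23.4, 26.8 and 32.7 CPM without Dox and 25.4, 9.37 and 11.9 CPM on Dox. Replicate 10 alone lay within the range without Dox, and leaving it out gave -1.41 with an adjusted p of 0.00782, against -0.83 ± 0.39 and 0.106. Mybl2 (B-MYB), the partner of the MuvB complex, had 29.7, 25.7 and 14.7 CPM and 16.7, 14.8 and 17.9 CPM, with replicate 6 as low as the Dox libraries (adjusted p = 0.224).

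Of the spindle checkpoint, anaphase-promoting complex and chromosome separation genes, 5 of 8 were lower on Dox, where 22.1% of all genes tested were. These 8 genes are too few to set against that share. Mad2l1, the checkpoint protein that blocks CDC20, fell from 68.8, 85.3 and 65.4 CPM to 27.8, 18.6 and 13.0 CPM (-1.88 ± 0.29, adjusted p = 0.000505). Bub3, which brings BUB kinases to kinetochores, fell from 164, 191 and 229 CPM to 68.6, 73.8 and 38.5 CPM (-1.69 ± 0.26, adjusted p = 0.000498). Both were more than 3-fold lower, and replicate 12 was the lowest library for each. Bub1b, their partner in the mitotic checkpoint complex, fell from 74.8, 72.6 and 91.0 CPM to 49.9, 53.9 and 61.0 CPM (-0.53 ± 0.19, adjusted p = 0.0398). That call was lost without any one of replicates 4, 5, 6, 10 and 11 (adjusted p 0.0719, 0.0593, 0.0981, 0.0799 and 0.0654).

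Cdc20, the activator of the anaphase-promoting complex, fell from 47.2, 32.6 and 35.9 CPM to 19.3, 25.8 and 16.9 CPM (-0.90 ± 0.27, adjusted p = 0.0195), and without replicate 4 the adjusted p was 0.102. Ube2s and Ube2c encode the enzymes that supply ubiquitin to that complex. Ube2s fell from 216, 216 and 227 CPM to 121, 154 and 68.0 CPM (-0.94 ± 0.26, adjusted p = 0.0143). Removing the length trend ended the calls of Ube2s (-0.19, adjusted p = 0.573) and Cdc20 (-0.67, adjusted p = 0.0605) over all models. It did so too over the basic set (Ube2s -0.23, adjusted p = 0.501, and Cdc20 -0.52, adjusted p = 0.136). Ube2c ran from 307, 280 and 266 CPM to 206, 231 and 105 CPM, without overlap (-0.65 ± 0.26, adjusted p = 0.0653). It passed without replicate 11 (adjusted p = 0.0308) or without replicate 12 (adjusted p = 0.0283) on Dox. Ube2c with the length trend removed was at -0.32 over all models (adjusted p = 0.338) and -0.15 over the basic set (adjusted p = 0.668).

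Neither separase nor its inhibitor securin passed. Espl1 (separase) was at 33.3, 21.3 and 24.2 CPM and 19.7, 17.2 and 8.96 CPM (adjusted p = 0.0944), and passed as lower with the length trend removed over the basic set (adjusted p = 0.0134) but not over all models (adjusted p = 0.0511). Pttg1 (securin) was at 41.2, 46.4 and 53.7 CPM without Dox and 73.5, 63.8 and 36.2 CPM on Dox. Replicates 10 and 11 were above, and replicate 12 below, every library without Dox (0.30 ± 0.27, adjusted p = 0.399). Pttg1 passed as higher without replicate 12 (0.53, adjusted p = 0.04) and with the length trend removed (0.97 over all models, adjusted p = 0.0141, and 1.49 over the basic set, adjusted p = 0.00154). Without replicate 10 or 11 it did not pass.

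Subunits of the chromosomal passenger complex, which corrects faulty attachments between kinetochores and microtubules, moved in opposite directions. Incenp, its scaffold, was higher on Dox, at 257, 238 and 313 CPM against 115, 122 and 109 CPM (1.22 ± 0.17, adjusted p = 0.000254), and with the length trend removed at 1.92 over all models and 1.25 over the basic set. Aurkb, the enzyme that Incenp binds and activates, was 5.40-fold lower, as given above. Cdca8 (borealin) fell from 159, 143 and 155 CPM to 69.8, 78.4 and 112 CPM (-0.81 ± 0.20, adjusted p = 0.00862), a call lost with the length trend removed (adjusted p = 0.252 over all models, 0.4 over the basic set). Birc5 (survivin) went from 182, 209 and 232 CPM to 178, 151 and 118 CPM, with replicate 10 just below replicate 4 (-0.48 ± 0.19, adjusted p = 0.0647). Without replicate 10 its adjusted p was 0.0281, and with the length trend removed it was 0.109 over all models and 0.243 over the basic set. The count ratio of Incenp to Aurkb was 2.19, 2.61 and 2.34 without Dox and 23.9, 18.9 and 88.0 on Dox.

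Of the NDC80 complex, the coupler between kinetochore and microtubule, Ndc80 and Spc24 fell, and Nuf2 and Spc25 did not pass. A difference between its subunits was not tested. Ndc80 fell from 127, 103 and 104 CPM to 47.4, 51.2 and 56.3 CPM (-1.10 ± 0.18, adjusted p = 0.000767). Spc24 fell from 105, 82.7 and 81.9 CPM to 45.2, 41.3 and 46.1 CPM (-1.02 ± 0.19, adjusted p = 0.00148), which did not pass with the length trend removed (adjusted p = 0.0787 over all models, 0.115 over the basic set). Their direct partners did not pass. Nuf2, which pairs with Ndc80, was at 44.5, 41.5 and 48.7 CPM and 33.3, 35.2 and 40.3 CPM (adjusted p = 0.241). Spc25, which pairs with Spc24, was at 83.1, 80.3 and 68.1 CPM and 65.6, 72.1 and 62.7 CPM (adjusted p = 0.366). With the length trend removed Nuf2 was at -0.02 over all models and -0.08 over the basic set, and Spc25 turned sign, to 0.34 and 0.44 (adjusted p = 0.144 and 0.067). The count ratio of Nuf2 to Ndc80 was 0.351, 0.405 and 0.470 without Dox and 0.704, 0.688 and 0.717 on Dox, and that of Spc25 to Spc24 was 0.795, 0.971 and 0.832 against 1.45, 1.75 and 1.36. The gene pairs of all ratios given here were chosen after their values were seen, and with 3 libraries a group the ratios were not tested.

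**Figure D3:**
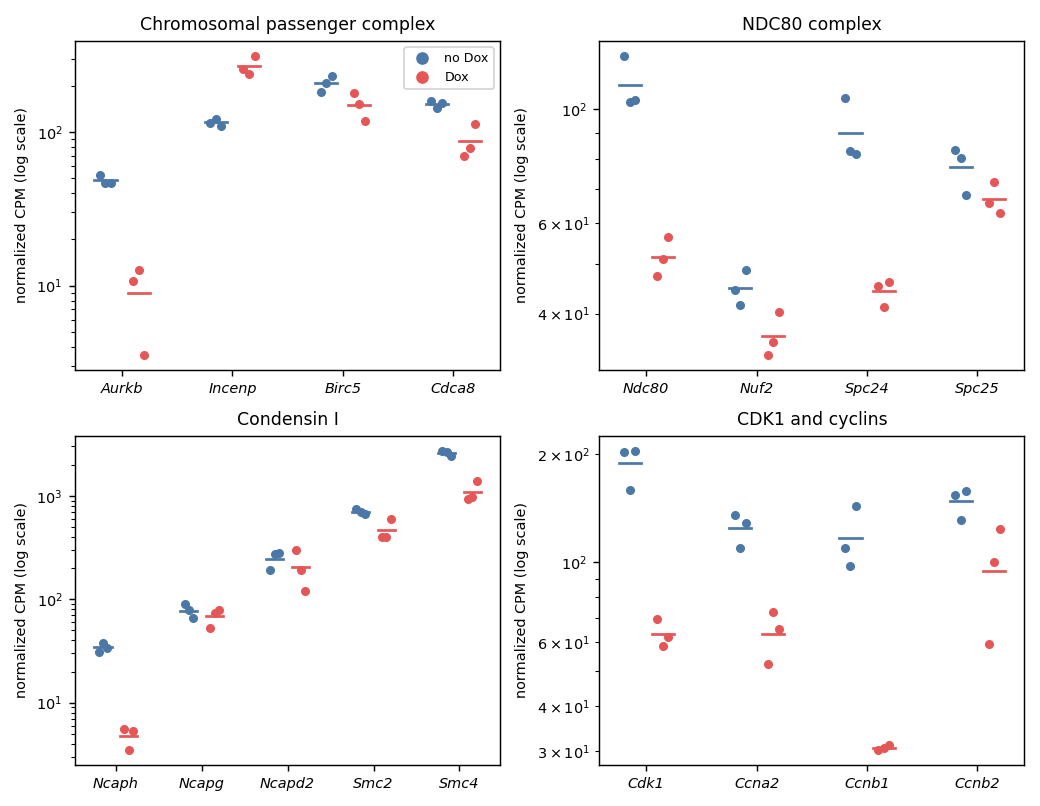
Normalized CPM (log axis) of the subunits of 3 complexes and of Cdk1 with its cyclins, with 1 point per library, lines at group means, blue without Dox and red on Dox. Aurkb drops from a mean of 48.6 to 8.96 CPM while Incenp rises from 115 to 269, and Ncaph drops from 34.3 to 4.78 while Ncapg stays at 77.7 and 68.5.

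The centromere genes Cenpa, Cenpe and Cenpf did not pass. Cenpa, the histone variant that marks the centromere, was at 127, 126 and 156 CPM and 126, 124 and 70.6 CPM, with only replicate 12 apart (adjusted p = 0.258). Cenpe, a kinetochore motor, was at 374, 337 and 311 CPM without Dox and 391, 395 and 579 CPM on Dox, higher without overlap but short of the threshold (0.42 ± 0.19, adjusted p = 0.0947). Cenpe passed as higher by library size (adjusted p = 0.00642), with upper-quartile scaling (adjusted p = 0.0462), with the stricter filter (adjusted p = 0.0308) and with the GC trend removed (adjusted p = 0.0376). It was at 0.19 without replicate 12 (adjusted p = 0.236) and at 0.26 without replicate 6 (adjusted p = 0.404). Cenpf, a large kinetochore protein, was at 415, 408 and 376 CPM and 355, 361 and 533 CPM (adjusted p = 0.811). Replicate 12 was the lowest Dox library for Cenpa and the highest for Cenpe and Cenpf. With the basic-set length trend removed the sign of all 3 turned, to 0.65 for Cenpa (adjusted p = 0.0435), -0.22 for Cenpe and -0.89 for Cenpf (adjusted p = 0.00295). Over all models Cenpa was at 0.44 (adjusted p = 0.149) and Cenpe at 0.17 (adjusted p = 0.476), and Cenpf did not pass either (adjusted p = 0.985).

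Kinesins, the motors of the spindle, mostly did not pass, with a median of -0.10 on the log2 scale. Of 7 tested, 2 were lower (28.6%, against 22.1% of all genes tested) and 1 was higher (14.3%, against 23.6%). These 7 genes are too few to set against the shares of all genes. Kif11 (Eg5), which pushes spindle poles apart, fell from 170, 191 and 178 CPM to 98.1, 106 and 143 CPM (-0.64 ± 0.18, adjusted p = 0.0176), and without replicate 5 the adjusted p was 0.056. Kif2c (MCAK), which takes microtubules apart at centromeres, fell from 33.1, 26.3 and 24.1 CPM to 5.99, 12 and 0.264 CPM. Replicate 12 held 2 counts of it, and the error was large (-2.17 ± 0.77, adjusted p = 0.0423). The Kif2c call was lost without replicate 4, 5, 6 or 10 (adjusted p 0.123, 0.0816, 0.088 and 0.1), and the log2 fold change was -3.18 without replicate 11. Without replicate 12 it was smaller and the call held (-1.63, adjusted p = 0.00436).

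Kif20b, a kinesin of late mitosis, was at 176, 137 and 144 CPM without Dox and 184, 210 and 239 CPM on Dox. Its rise was at the edge of the threshold (0.47 ± 0.17, adjusted p = 0.0499). The call was lost in 11 of 18 alternatives, among them those without replicate 4, 5, 6, 11 or 12 (adjusted p 0.0721, 0.323, 0.266, 0.0986 and 0.0789), and the log2 fold change was 0.32 without replicate 5. With the length trend removed it was 0.4 over all models and 0.09 over the basic set. Kif23 (MKLP1), the central spindle motor, had 96.7, 99.9 and 94.6 CPM and 110, 133 and 158 CPM, higher without overlap (0.46 ± 0.18, adjusted p = 0.0592), and passed without replicate 10 (adjusted p = 0.0309). The chromosome-bound kinesin Kif4 (65.4, 60.4 and 58.3 against 67.0, 46.9 and 69.4 CPM) and the spindle kinesin Kif15 (206, 174 and 169 against 148, 168 and 198 CPM) overlapped between the groups. Kif15 passed as higher with the length trend over all models removed (0.57, adjusted p = 0.0203), but had the opposite sign over the basic set (-0.41, adjusted p = 0.0762). The groups also overlapped for Kif22, the chromokinesin KID, at 60.9, 74.8 and 82.4 CPM and 45.5, 54.3 and 67.9 CPM, which passed as lower, of the 18 alternatives, only without replicate 12 (-0.56, adjusted p = 0.0367) and was at 0.29 with the length trend removed over all models.

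Stmn1 (stathmin), which keeps tubulin from polymerizing and is abundant in many leukaemias, showed the largest change of any member in the analysis reported. It stood at 495, 540 and 665 CPM without Dox and 54.7, 68.3 and 66.6 CPM on Dox, 8.96-fold lower (-3.16 ± 0.19, adjusted p = 2.39e-06). All Dox libraries lay together at the low level. With the length trend removed Stmn1 was at -2.56 over all models and -2.23 over the basic set. Ncaph was at -2.54 or lower in every alternative, so over the basic set its fall was larger than that of Stmn1.

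Of the cytokinesis genes, Ect2 and Racgap1 fell, and Prc1 and Anln did not pass. Ect2, the exchange factor that activates RhoA at the cleavage furrow, fell from 48.9, 52.1 and 59.3 CPM to 15.1, 31.3 and 35.6 CPM (-0.97 ± 0.31, adjusted p = 0.0263). Racgap1, the centralspindlin subunit that recruits it, fell from 78.9, 67.9 and 73.9 CPM to 48.2, 42.2 and 38.6 CPM (-0.78 ± 0.18, adjusted p = 0.0068). The call of Ect2 was lost without replicate 5 or 6 (adjusted p 0.0514 and 0.069), and those of both genes by library size alone and with the length trend over all models removed (adjusted p 0.449 for Ect2 and 0.521 for Racgap1). Over the basic set both calls held (Ect2 -1.13, adjusted p = 0.0129, and Racgap1 -0.75, adjusted p = 0.00786). Prc1, the bundler of antiparallel microtubules, was at 124, 123 and 96.3 CPM and 119, 146 and 193 CPM (0.41 ± 0.21, adjusted p = 0.136). Over the alternatives Prc1 ran from 0.19 to 0.72, and it passed as higher by library size alone and with the stricter filter. Anln, the furrow scaffold anillin, was at 38.8, 35.5 and 38.7 CPM and 52.9, 37.3 and 72.5 CPM (0.52 ± 0.26, adjusted p = 0.122), and passed without replicate 11 (adjusted p = 0.029) or with the length trend over all models removed (1.19, adjusted p = 0.00393), but was at 0.24 both over the basic set (adjusted p = 0.473) and without replicate 12 (adjusted p = 0.385). Neither gene was lower in its Dox mean.

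Of the spindle assembly factors, Nusap1 and Hmmr fell and Tpx2 did not pass. Nusap1, a microtubule stabilizer, fell from 376, 321 and 307 CPM to 179, 144 and 237 CPM (-0.84 ± 0.20, adjusted p = 0.00685). Hmmr, a spindle protein that works with Tpx2, fell from 163, 135 and 112 CPM to 93.5, 62.2 and 99.6 CPM (-0.68 ± 0.23, adjusted p = 0.0315), a call lost without replicate 4, 5 or 11 (adjusted p 0.129, 0.0719 and 0.0731). Tpx2, which activates Aurora A, was at 169, 171 and 162 CPM and 137, 135 and 194 CPM. Its Dox libraries lay on both sides of the range without Dox (-0.11 ± 0.18, adjusted p = 0.662).

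Of condensin I, the ring that compacts mitotic chromosomes, Ncaph, Smc4 and Smc2 fell, and Ncapg and Ncapd2 did not pass. Here too a difference between subunits was not tested. Ncaph, the subunit that closes the ring, fell from 31.0, 37.9 and 34.1 CPM to 5.58, 3.50 and 5.27 CPM, 7.19-fold lower (-2.85 ± 0.31, adjusted p = 6.48e-05). Of the core ATPases, Smc4 fell from 2717, 2677 and 2412 CPM to 927, 983 and 1389 CPM (-1.24 ± 0.17, adjusted p = 0.00028). Smc2 fell from 748, 697 and 662 CPM to 397, 400 and 594 CPM (-0.60 ± 0.18, adjusted p = 0.0221), and the call was lost without replicate 4, 5, 10 or 11 (adjusted p 0.0633, 0.0508, 0.0656 and 0.061). The Smc2 call was also lost by library size alone and with the GC trend removed. Smc2 with the length trend removed was at -0.99 over all models and -0.97 over the basic set. The ratio of Smc2 to Smc4 counts was 0.275, 0.260 and 0.274 without Dox and 0.428, 0.407 and 0.428 on Dox, with little spread within each group. The regulatory subunits Ncapg (89.7, 78.2 and 65.3 against 52.7, 73.4 and 79.5 CPM) and Ncapd2 (192, 271 and 279 against 301, 192 and 120 CPM) did not pass, with adjusted p of 0.521 and 0.484.

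The proliferation markers Top2a and Mki67 did not pass. Mki67, the Ki-67 protein that coats mitotic chromosomes, was at 939, 934 and 812 CPM without Dox and 854, 801 and 1207 CPM on Dox (0.09 ± 0.18, adjusted p = 0.698). Top2a, the topoisomerase that untangles sister chromatids, was at 1552, 1475 and 1585 CPM and 1167, 1248 and 1482 CPM (-0.24 ± 0.14, adjusted p = 0.176). Replicate 12 was the highest Dox library for both, and without it Top2a passed as lower (-0.37, adjusted p = 0.0142) and Mki67 was at -0.13. With the length trend removed Top2a passed as lower over all models (-0.62, adjusted p = 0.00379) and over the basic set (-0.60, adjusted p = 0.00483). Mki67 was at -0.29 over all models (adjusted p = 0.197) and passed as lower only over the basic set (-0.77, adjusted p = 0.00542). The ratio of Mki67 to Cdk1 counts was 4.62, 5.88 and 3.97 without Dox and 12.2, 13.7 and 19.5 on Dox.

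**Figure D4:**
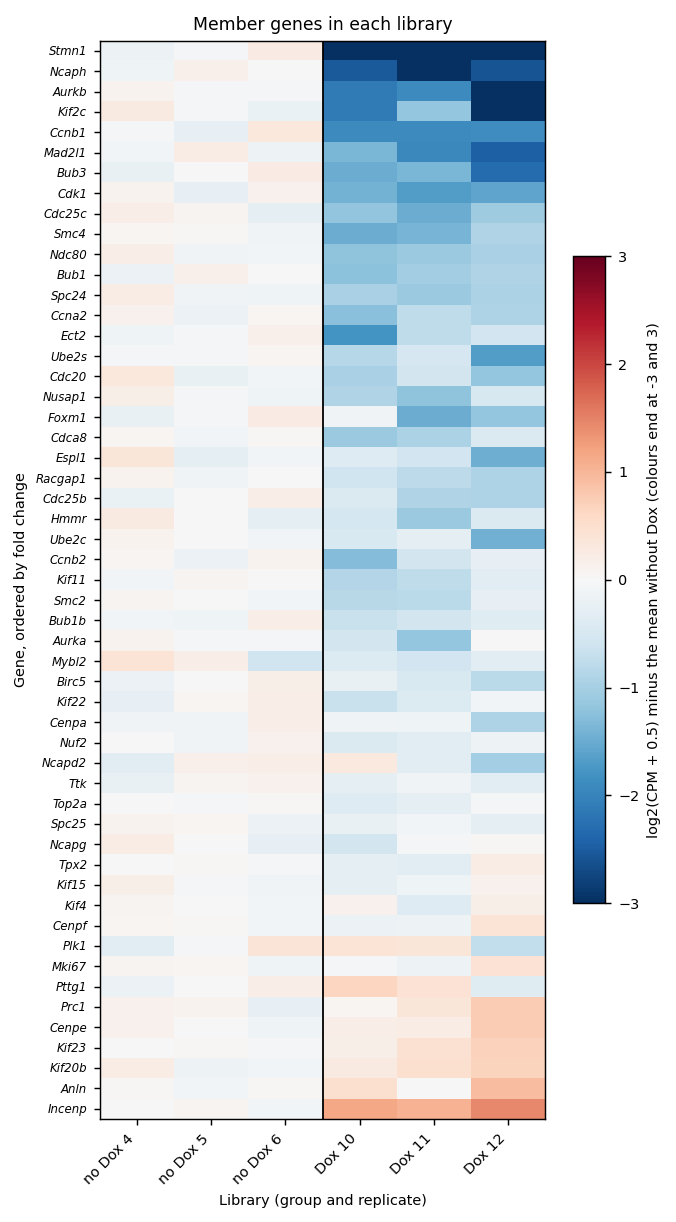
Level of each tested member in each library, as log2(CPM + 0.5) minus the mean of the 3 libraries without Dox, ordered by fold change (blue lower, red higher, colours ending at -3 and 3). Replicate 12 on Dox was the highest of the 3 Dox libraries in 31 members and the lowest in 17.

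The Dox libraries ranked the members differently. Replicate 12 was the highest of the 3 in 31 of 53 members (58.5%, against 38.1% of all genes tested) and the lowest in 17 (32.1%, against 34.3%). The members in which it was highest had a median transcript length of 3668 bases and a median GC content of 44.2%, and those in which it was lowest 2199 bases and 52.1%. Across the 53 members, the log2 ratio of replicate 12 to the mean of replicates 10 and 11 had a Pearson correlation of -0.44 with GC content and 0.29 with log2 length, against -0.07 and 0.08 across 11992 genes. The log2 fold change itself had a correlation of 0.31 with log2 length across members and 0.23 across those genes. Genes share their libraries and are not independent, so these values only describe them, and the part of length and GC content in the member differences was not tested beyond the alternatives given.

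Members shared promoter elements that the choice of genes did not use. RefSeq start regions (GRCm38.p6, 250 bases before to 50 after the start, 1 per gene, the first listed) were matched for 44 of the 54 members. The first listed start is not always the outermost one. The Kif2c region, on the minus strand of chromosome 4, ends at 117179022, inside a GENCODE gene that begins at 117182639, and its TTTGAA match is counted below. G2/M promoters are known for the cell cycle genes homology region (CHR), bound by MuvB complexes, and for CCAAT boxes, bound by NF-Y. The CHR letters TTTGAA, searched on both strands, occurred in 32 of 44 members (72.7%), in 18.1% of all 27025 start regions, and in 13.1% of the 10681 start regions of genes tested here. CCAAT occurred in 31 members (70.5%) against 37.9% of all, and both together in 27 members (61.4%) against 7.1%. The second CHR form, TTTAAA, was in 20.5% against 13.2%, and the E2F type letters TTCCCGC or TTGGCGC were in 18.2% against 6.9%. TTGGCGC next to an A shares letters with a reverse CCAAT box, as in 2 members, Ccnb1 and Ect2. In the 250 bases before the start alone, TTTGAA was in 36.4% of members and 16.3% of all. Of its 42 matches in members, 31 began within 50 bases of the start on either side. CCAAT matches lay further out, with a median position 68 bases before the start.

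**Figure D5:**
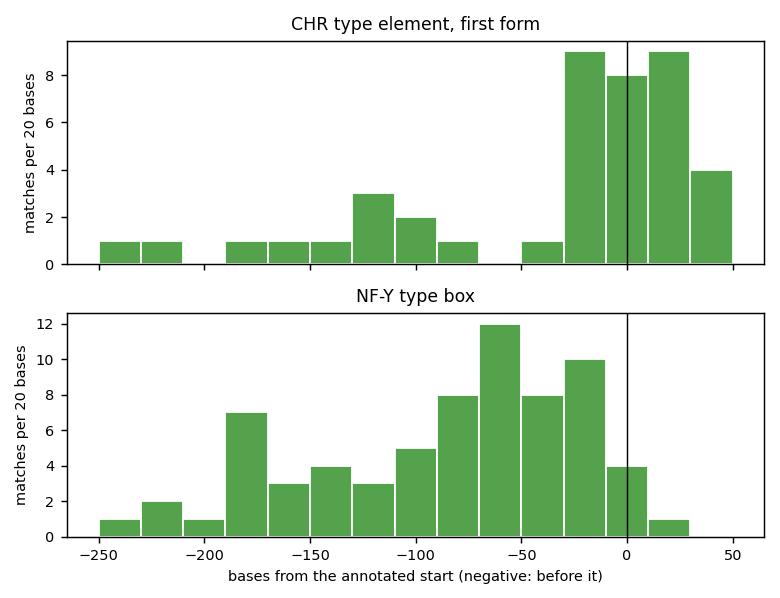
Number of matches per 20 bases in 44 member start regions (x axis, bases from the annotated start; y axis, matches), for the CHR type element and the NF-Y type box. Matches to the CHR type element gather at the start, 31 of 42 beginning within 50 bases of it, and the 69 NF-Y type matches have their median 68 bases before it.

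These elements were found both in members that fell and in members that did not pass. TTTGAA was present in 12 of 19 lower members and in 19 of 24 that did not pass, and CCAAT in 13 of 19 and 18 of 24; the difference was not tested. The stretches from 150 bases before to 30 after the start are shown for members that fell (Cdk1, Ccnb1 and Ncaph), for members that did not pass (Ube2c, Top2a and Mki67) and for Kif20b, at the edge of the threshold. In GRCm38.p6 they lie at chr10:69352883-69353062 (Cdk1, minus strand), chr13:100786457-100786636 (Ccnb1, minus strand), chr2:164769779-164769958 (Ube2c, plus strand), chr11:99024160-99024339 (Top2a, minus strand), chr7:135716350-135716529 (Mki67, minus strand), chr19:34922208-34922387 (Kif20b, plus strand) and chr2:127133925-127134104 (Ncaph, minus strand). Each is printed 5′ to 3′ on the gene's strand, and capitals mark matches on either strand to the letters searched.
Cdk1: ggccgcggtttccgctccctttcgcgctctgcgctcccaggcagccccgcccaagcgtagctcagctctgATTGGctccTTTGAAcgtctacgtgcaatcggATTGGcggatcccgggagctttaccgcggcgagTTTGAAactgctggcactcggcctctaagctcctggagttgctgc
Ccnb1: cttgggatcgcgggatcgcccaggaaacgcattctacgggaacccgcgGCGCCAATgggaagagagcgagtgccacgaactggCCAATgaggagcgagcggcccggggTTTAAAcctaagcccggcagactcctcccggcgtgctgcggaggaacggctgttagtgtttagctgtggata
Ube2c: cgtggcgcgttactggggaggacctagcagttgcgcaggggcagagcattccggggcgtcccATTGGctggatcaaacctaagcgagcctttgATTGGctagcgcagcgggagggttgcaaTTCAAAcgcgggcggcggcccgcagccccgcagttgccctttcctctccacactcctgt
Top2a: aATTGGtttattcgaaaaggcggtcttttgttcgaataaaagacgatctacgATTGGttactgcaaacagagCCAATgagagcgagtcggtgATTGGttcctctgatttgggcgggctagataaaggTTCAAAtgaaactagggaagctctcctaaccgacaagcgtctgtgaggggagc
Mki67: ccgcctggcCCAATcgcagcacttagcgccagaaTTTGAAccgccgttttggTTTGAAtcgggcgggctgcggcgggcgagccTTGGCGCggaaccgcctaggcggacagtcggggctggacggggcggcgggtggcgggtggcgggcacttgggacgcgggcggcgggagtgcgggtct
Kif20b: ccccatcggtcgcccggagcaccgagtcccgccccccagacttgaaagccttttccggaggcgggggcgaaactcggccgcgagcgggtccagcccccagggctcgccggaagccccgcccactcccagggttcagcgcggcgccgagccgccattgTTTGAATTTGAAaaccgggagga
Ncaph: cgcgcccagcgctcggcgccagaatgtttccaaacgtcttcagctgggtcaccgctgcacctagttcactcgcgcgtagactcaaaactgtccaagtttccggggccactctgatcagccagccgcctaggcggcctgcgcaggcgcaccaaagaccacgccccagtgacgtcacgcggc

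Cdk1 carried 2 CHR matches, the nearer 15 bases before the start, with inverted CCAAT boxes 48 and 80 bases before it, and fell 2.97-fold. Top2a has a CHR match 23 bases before the start and CCAAT boxes on either strand 58, 78, 98 and 149 bases before it, and did not pass. In Ccnb1 the second CHR form lies 42 bases before the start behind CCAAT boxes at 67 and 99 bases. Kif20b has 2 CHR matches just after the start and no CCAAT box. The Ncaph stretch as printed holds none of these letters, though TTGGCGC follows 41 bases after the start, and Ncaph fell 7.19-fold. A match describes letters only and does not show a bound factor.

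Of 131 further genes tested, from lists of mitosis, chromosome cohesion, G2/M transcription and p53-dependent G2 arrest that were drawn up with earlier results known, 46 were lower (35.1%, against 22.1% of all genes tested) and 18 higher (13.7%, against 23.6%). Their median stood at -0.51 on the log2 scale. Of 15 further G2 and mitotic entry genes, 7 were lower (46.7%) and 0 were higher. The largest falls there were in Cks1b, a CDK-binding subunit (258 ± 19.5 to 38.1 ± 18.9 CPM (SD, n = 3), -2.76 ± 0.35 (SE), adjusted p = 0.000176 by edgeR), and in Gtse1, a microtubule and p53 regulator (-2.42, adjusted p = 0.000163). Of 35 further centromere and kinetochore genes, 16 were lower (45.7%) and 2 higher (5.71%). Cenpw, a histone-fold protein of the inner kinetochore, fell by 3.85 on the log2 scale (adjusted p = 0.000125), and Mis12, of the outer kinetochore, rose by 0.80 (adjusted p = 0.012). Of 26 further spindle and cytokinesis genes, 8 were lower (30.8%) and 4 higher (15.4%), led by Psrc1 (-3.15) and Arhgap11a (0.95, adjusted p = 0.00201).

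Of 15 subunits and activators of the anaphase-promoting complex, 6 were lower (40%) and 1 was higher (6.67%). The higher one was Fzr1 (CDH1), the activator used after mitosis and in G1, at 38.6 ± 0.755 CPM without Dox and 65.8 ± 4.69 CPM on Dox (SD, n = 3; log2 fold change 0.77, adjusted p = 0.00641 by edgeR). Cohesin and its regulators held 2 lower (15.4%) and 3 higher (23.1%) genes of 13, near or below the shares of all genes tested, with Smc3 at -0.78 and its loader Nipbl at 0.96. Of the 3 genes of condensin II alone, Ncapd3 was higher (0.62, adjusted p = 0.0229). Among the regulators of G2/M transcription, 4 of 16 were lower (25%) and 5 higher (31.2%), shares near those of all genes tested. Tfdp1, the partner of E2F proteins, fell from 95.0 ± 9.35 to 14.2 ± 2.22 CPM (SD, n = 3; -2.75, adjusted p = 8.42e-06 by edgeR), while its relative Tfdp2 rose by 1.52 and Rbl2 (p130), the pocket protein of resting cells, rose by 1.68. Of 8 genes tested from the p53 list of G2 arrest, 3 were lower and 2, Gadd45a (1.5) and Gadd45b (1.69), were higher, counts too small to set against the share of all genes tested.

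Some members share their last exon with another gene in the GENCODE M21 basic annotation, and the counting mode for strand is not given in the sources used here. An antisense gene lies over the last exon of Ccna2, Cdc20, Ube2c, Kif20a, Prc1 and Ncapg, and a gene on the same strand over that of Foxm1, so counts of these 7 members are uncertain.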

How the data were processed

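Libraries were QuantSeq 3′ mRNA-Seq V2 (forward) libraries of spleen RNA, per the labels' protocols. The authors deposited raw counts per Entrez gene, 1 column per library; STAR, featureCounts and GRCm38 are named in the submitters' processing notes, and versions, settings, annotation and use of strand or molecular identifiers are not given in the sources used here. All 6 columns matched a sample by title and 0 were left over. Symbols came from RefSeq GRCm38.p6 (39374 of 40808 gene IDs).

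The test was that of edgeR 4.0.16 (R 4.3.3): filterByExpr (minimum count 10, minimum total 15), TMM scaling, glmQLFit and glmQLFTest on all 6 libraries without covariates, Benjamini-Hochberg adjustment over 14110 genes, threshold 0.05. Each SE is the fold change divided by the square root of F. Alternatives were RLE, upper-quartile or library-size scaling, 2 other filters, DESeq2 1.42.0, limma-voom 3.58.1 with or without group weights, dropping 703 abundant genes (globins, antigen receptors and the mitochondrial genome), removing a trend with GENCODE M21 transcript length (11992 genes, 85% of those tested), and leaving out each library. Length was first the median over all protein-coding models; the median over the basic set, and removal of a GC trend, were chosen after seeing the data. Counts were also simulated for 13616 genes, of which 94 were changed by 1 and 91 by 2 on the log2 scale. Each gene had the same spread in both groups. The test called 13.8% of the genes changed by 1, 58.2% of those changed by 2, and 6 of 13431 unchanged genes. In the data 45.6% of genes passed and the spread was wider on Dox, so these shares do not give the recovery in this comparison.

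The members and gene lists were chosen with earlier results of these data known. Values in every library are given for a fixed set of members, for the 5 largest changes each way and for members not called lower; of other lists at most 3 called genes a direction are named. Of 331 list entries, 1 was not found.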

Additional observations from a re-analysis of the deposited data

How the results depend on the processing

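Of the 26 called members, 13 kept the call in every alternative, and 18 of the 27 others passed in at least 1, 4 of them only with the sign turned. Of 53 members, 14 changed sign in at least 1 alternative, none of them called in the analysis reported. Library-size scaling gave 13 lower and 6 higher members and a median of -0.33, and an adjusted p under 0.01 gave 15 lower and 1 higher. The number higher was 1 with RLE factors, no low-count filter, DESeq2 or the abundant genes left out, 4 with upper-quartile scaling or the GC trend removed, and 5 with a minimum of 10 counts per gene and library. The member median was -0.54 with upper-quartile scaling, -0.79 with no filter, -0.5 with the stricter filter and -0.52 with the GC trend removed.

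The length used for the length trend was changed after its first result had been seen, in order to leave out partial transcript models. With lengths over all models, 19 members were lower and 4 higher with a median of -0.35. With the basic set, 24 were lower and 3 higher with a median of -0.6. The count of members lower and their median thus depend on that choice.

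Leaving out 1 library gave 18 (without replicate 5) to 30 (without replicate 12) members lower, 1 to 3 higher, and member medians of -0.73 to -0.54. On the log2 scale, the summed member share changed by -0.22; it was -0.11 without the abundant genes and -0.34 as the median over members, where the ratio to T cell markers was 2.82 in place of 2.54. TTTGAA was in 36.4% of members with the 250 bases before the start alone.

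Signs turned in these cases, none of them a called member. Library-size scaling raised the median of all genes by 0.31 and left the members at -0.71 relative to it, so values just below 0 turned with that common shift: Ttk 0.07, Spc25 0.11, Kif4 0.3, Kif15 0.21, Tpx2 0.2, Top2a 0.06, Ncapd2 0.04 and Ncapg 0.13. With no filter they were Plk1 -0.05, Cenpf -0.09 and Mki67 -0.05. With the stricter filter they were Kif4 0.11, Kif15 0.02 and Tpx2 0.01, with the GC trend removed Kif4 0.05 and Kif15 0.02, and with upper-quartile scaling Kif4 0.09. With the length trend over the basic set removed they were Cenpa 0.65, Cenpe -0.22, Cenpf -0.89, Spc25 0.44 and Mki67 -0.77. Over all models they were Cenpa 0.44, Cenpf 0.00, Spc25 0.34, Kif15 0.57, Kif22 0.29 and Mki67 -0.29. With 1 library left out, Plk1 ran from -0.14 to 0.34, Cenpf from -0.18 to 0.14 and Mki67 from -0.13 to 0.18, and Kif4 was at 0.13 without replicate 11. Beyond the library-size shift, the cause of these changes was not tested.

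No paired analysis was possible because replicates 4 to 6 and replicates 10 to 12 have no number in common. In the simulated counts, 13.8% of genes changed by 1 on the log2 scale were called. Few genes were changed there and both groups had the same spread, so that share does not carry over to these data. The members varied less between libraries than all genes did, and 12 were called lower at under 2-fold.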
